A study of Mus musculus with 3 samples.

Results

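The validation LMX1B ChIP listed 4501 intervals (called regions of enrichment), of which 730 had their midpoint within 1 kb of an end of an annotated gene. Either end of a gene of any kind counted, whether protein-coding, long non-coding RNA (lncRNA), transfer RNA (tRNA) or another class, and the ends came from 49555 RefSeq genes on GRCm38.p6 (mm10 coordinates). These 730 are called gene-end intervals. The other validation intervals lay elsewhere in gene bodies (2073) or outside genes (1698). The rule that defines the gene-end intervals uses no measured value other than position. The rule, and the gene lists and motifs below, were chosen with earlier results of these data known.

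LMX1B is a LIM homeodomain transcription factor: its LIM domains bind partner proteins such as LDB cofactors, and its homeodomain binds AT-rich DNA around a TAAT core. In the limb it is made in the dorsal mesenchyme, where it is required for dorsal structures, and limbs that lack it have ventral structures on both sides. Intervals at gene starts fall on promoters, while homeodomain factors are also known to bind enhancers far from genes.

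The tissue was limb buds of C57BL/6 embryos at embryonic day 12.5. Limbs of both pairs, fore and hind, were pooled, and the design gives 2 runs with 48 buds in each, so all cell types of the bud were present. Frozen buds were fixed with formaldehyde while they thawed. The validation ChIP used the polyclonal LMX1B antibody BMO8, and the name of its interval track gives no genotype, though the series title speaks of wild-type limb buds. The first ChIP, with 1287 intervals, used the same antibody, and its track name marks the tissue as wild type; an input sample from wild-type and mutant chromatin had no interval list here and was not used. Each ChIP is 1 sample without replicates, so no value below has a replicate error and no test was run. Percentages carry exact (Clopper-Pearson) 95% binomial intervals, which cover counting error only. Each interval has 1 deposited score with no stated unit, from 6 to 55 in the validation list and from 12 to 86 in the first ChIP, and each score is read within its own list. The sequencing depth is unknown.

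Promoter sequences of 8 genes are shown because their starts lie inside a gene-end interval and they stand for the groups described below. The first belongs to the interval with the highest score and the second to Lmx1b itself. Lmo1, Tbx18 and Dusp6 are regulators of transcription and signalling, H2ac8 is a histone gene, Top2a encodes a DNA topoisomerase and Rps7 a ribosomal protein. Each window is RefSeq sequence of GRCm38.p6, 300 bases from 250 before the start to 50 after it, read 5′ to 3′ on the gene's strand. The start of a window can differ from the outer end of the gene, from which distances are measured. For Lmx1b these are chr2:33641098 and chr2:33641208, and for Top2a chr11:99024189 and chr11:99024199. Capitals mark the homeodomain core site TAAT, the CCAAT box, the ETS site CCGGAA and the GC box GGGCGG on either strand; where matches overlap or touch, the capitals run together.
2900052L18Rik promoter (chr11:120231568-120231867, minus strand): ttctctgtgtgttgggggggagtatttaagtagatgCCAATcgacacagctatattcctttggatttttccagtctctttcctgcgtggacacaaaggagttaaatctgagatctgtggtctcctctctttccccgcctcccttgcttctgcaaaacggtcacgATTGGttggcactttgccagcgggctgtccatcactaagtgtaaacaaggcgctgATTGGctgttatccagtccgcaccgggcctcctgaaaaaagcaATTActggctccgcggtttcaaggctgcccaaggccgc
Lmx1b promoter (chr2:33641049-33641348, minus strand): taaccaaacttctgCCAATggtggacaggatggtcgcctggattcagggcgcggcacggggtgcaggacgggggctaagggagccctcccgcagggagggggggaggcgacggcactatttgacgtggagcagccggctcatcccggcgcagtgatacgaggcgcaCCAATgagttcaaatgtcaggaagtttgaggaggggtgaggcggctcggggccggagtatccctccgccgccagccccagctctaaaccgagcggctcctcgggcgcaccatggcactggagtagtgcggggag
Lmo1 promoter (chr7:109175158-109175457, minus strand): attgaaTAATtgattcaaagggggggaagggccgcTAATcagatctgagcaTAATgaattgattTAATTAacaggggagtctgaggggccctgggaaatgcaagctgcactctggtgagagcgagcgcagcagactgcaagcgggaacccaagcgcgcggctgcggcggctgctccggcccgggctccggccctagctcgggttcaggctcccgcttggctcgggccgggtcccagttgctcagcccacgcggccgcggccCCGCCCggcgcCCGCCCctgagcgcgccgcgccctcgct
Tbx18 promoter (chr9:87731211-87731510, minus strand): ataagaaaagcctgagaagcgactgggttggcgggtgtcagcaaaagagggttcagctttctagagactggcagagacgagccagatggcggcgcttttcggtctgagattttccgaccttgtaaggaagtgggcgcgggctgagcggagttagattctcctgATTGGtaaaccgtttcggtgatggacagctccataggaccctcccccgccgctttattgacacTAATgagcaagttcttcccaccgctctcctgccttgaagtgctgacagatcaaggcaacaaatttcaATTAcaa
Dusp6 promoter (chr10:99262981-99263280, plus strand): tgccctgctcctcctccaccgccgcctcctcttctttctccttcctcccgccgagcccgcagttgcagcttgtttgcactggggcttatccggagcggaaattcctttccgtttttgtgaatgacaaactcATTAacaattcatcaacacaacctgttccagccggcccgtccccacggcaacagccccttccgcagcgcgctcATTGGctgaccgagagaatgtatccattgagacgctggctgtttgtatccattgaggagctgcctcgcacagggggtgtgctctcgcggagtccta
H2ac8 promoter (chr13:23571171-23571470, minus strand): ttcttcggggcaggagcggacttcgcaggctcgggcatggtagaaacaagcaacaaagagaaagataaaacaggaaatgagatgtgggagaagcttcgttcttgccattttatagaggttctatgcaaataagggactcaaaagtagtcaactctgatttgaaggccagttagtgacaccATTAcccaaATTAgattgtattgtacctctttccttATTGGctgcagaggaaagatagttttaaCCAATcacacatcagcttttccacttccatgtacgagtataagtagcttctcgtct
Top2a promoter (chr11:99024140-99024439, minus strand): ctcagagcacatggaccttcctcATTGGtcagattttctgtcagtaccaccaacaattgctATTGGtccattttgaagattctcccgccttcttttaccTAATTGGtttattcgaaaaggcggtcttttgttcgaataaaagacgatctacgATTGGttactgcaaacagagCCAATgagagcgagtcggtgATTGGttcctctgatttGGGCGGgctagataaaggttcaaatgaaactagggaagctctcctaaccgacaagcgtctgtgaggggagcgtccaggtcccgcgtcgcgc
Rps7 promoter (chr12:28635904-28636203, minus strand): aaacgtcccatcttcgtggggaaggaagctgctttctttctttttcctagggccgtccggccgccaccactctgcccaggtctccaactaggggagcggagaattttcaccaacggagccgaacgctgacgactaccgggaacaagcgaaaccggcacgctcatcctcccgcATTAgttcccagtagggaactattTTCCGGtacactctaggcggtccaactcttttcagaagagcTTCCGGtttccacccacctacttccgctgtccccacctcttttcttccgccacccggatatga

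The Lmx1b window held no TAAT core site and 2 CCAAT boxes, and had a GC content of 65.7%. The Lmo1 window held 5 core sites and 2 GC boxes at 66.3% GC. Tbx18 had 2 core sites and 1 CCAAT box, and Dusp6 had 1 of each. In the H2ac8 window 2 core sites stood beside 2 CCAAT boxes. Top2a held 6 CCAAT boxes, the most of the 8, and Rps7 held 2 ETS sites and no CCAAT box. A match is a string of letters, not a measured site.

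Gene-end intervals were no stronger or wider than the rest of the list. Their scores had a median of 10 (quartiles 9 and 13, highest 39), against 11 (10 and 14, highest 55) elsewhere in gene bodies and 11 (10 and 14, highest 43) outside genes. Their widths had a median of 566.5 bp, against 573 bp elsewhere in gene bodies and 572 bp outside genes. High scores were less common among them: 90 (12.3%) had a score of 16 or more, against 17.3% of intervals elsewhere in gene bodies and 17.7% of those outside genes. The 3 intervals just inside it, 998, 998 and 996 bp from ends of Gm34739, Fgf10 and Bcas3os1, had scores of 10, 9 and 9, and the 3 just outside it, 1001, 1006 and 1012 bp from ends of Gm30855, Dclk1 and C2cd5, had 10, 14 and 24.

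Of the gene-end intervals, 109 overlapped a first-ChIP interval by at least 1 bp, or 14.9% (95% interval 12.4 to 17.7). The share over all validation intervals was 15.6%, so the gene-end share lies near the background. It was 14.3% (12.8 to 15.9) elsewhere in gene bodies and 17.4% (15.6 to 19.3) outside genes. In every class the share was higher at higher scores. At scores of 6 to 9, 4.52% (2.09 to 8.41) of gene-end intervals were shared, against 3.40% (2.31 to 4.82) of all other validation intervals. At scores of 10 and 11 the values were 7.63% (4.72 to 11.5) at gene ends and 4.86% (3.70 to 6.25) among the others, and at 12 to 15 they were 19.0% (13.5 to 25.5) and 17.7% (15.5 to 20.2). At scores of 16 or more, 51.1% (40.3 to 61.8) of gene-end intervals were shared, against 48.2% (44.3 to 52.1) of the others. The gene-end and other intervals overlapped in their binomial ranges at each score.

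**Figure D1:**
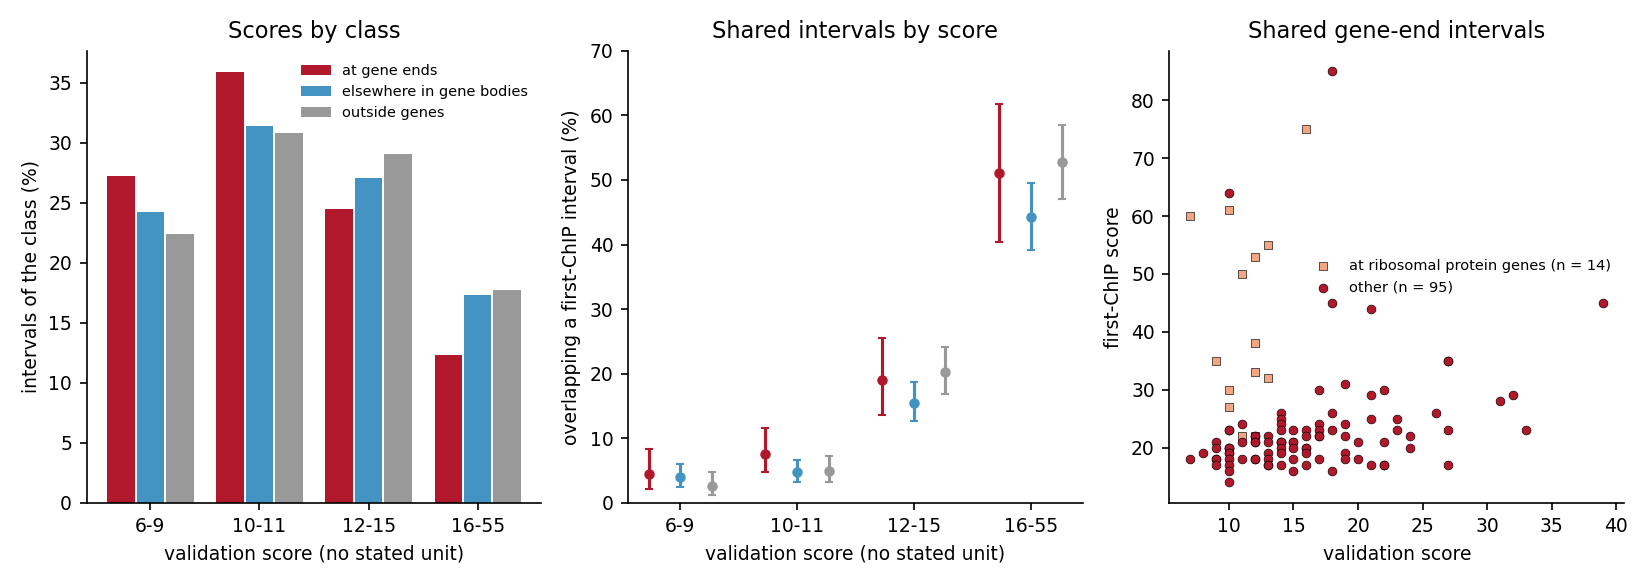
Left, the percentage of each class of validation intervals by score; middle, the percentage that overlaps a first-ChIP interval at each score, with exact 95% binomial intervals; right, both scores of the 109 shared gene-end intervals, with the 14 at ribosomal protein genes as squares. Gene-end intervals had fewer scores of 16 or more (12.3%), the shared percentage is highest at scores of 16 or more in all classes (51.1% at gene ends), and the squares lie low on the validation axis and high on the first-ChIP axis.

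Gene starts held most of the gene-end intervals. Strand was known for 27007 of the 49555 genes, from the RefSeq promoter table, and 541 intervals had a nearest gene with a strand. Of these, 441 (81.5%, 77.98 to 84.7) were nearest to a start and 100 to a 3′ end. Midpoints gathered just upstream of starts. Of 489 intervals with a start within 1 kb, 245 (50.1%) had the midpoint within 250 bp of it and 311 (63.6%, 59.2 to 67.9) lay outside the gene. The median midpoint was 86 bp upstream of the start (quartiles 332 bp upstream and 137 bp inside). Protein-coding starts had the median 119 bp upstream, and lncRNA starts 24 bp upstream with a wider spread (quartiles 332 bp upstream and 319 bp inside). Around 3′ ends there was no such peak: 33 of 137 intervals (24.1%, 17.2 to 32.1) lay within 250 bp.

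**Figure D2:**
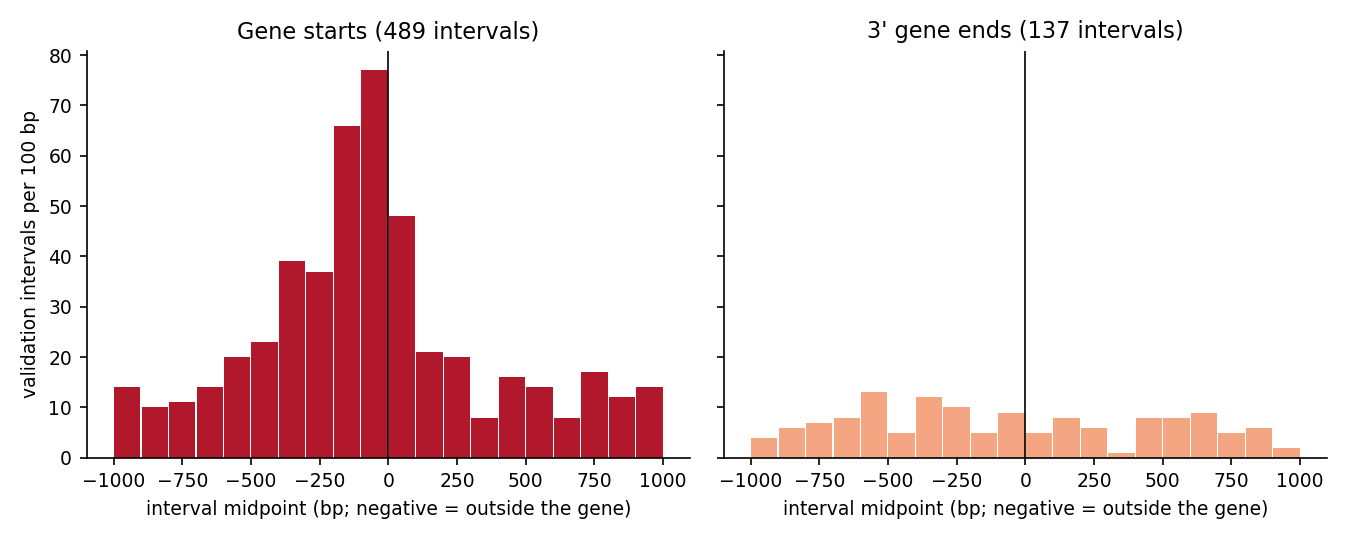
Number of validation intervals per 100 bp by the distance of their midpoint from the nearest gene start (left, 489 intervals) and the nearest 3′ end (right, 137 intervals), where negative values lie outside the gene. Midpoints peak just upstream of starts, with the median 86 bp outside the gene, and show no such peak around 3′ ends.

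The interval itself contained the annotated end in 415 of the 730 (56.8%). A start listed in the promoter table lay inside 265 gene-end intervals (36.3%), against 36 of those elsewhere in gene bodies (1.74%) and 0 of those outside genes, where the classes themselves set most of this difference. Intervals nearest to a 3′ end had a median score of 11 and 16 of 100 were shared, against a median of 10 and 58 of 441 (13.2%) for those nearest to a start. Another validation interval lay within 10 kb of 32.0% of the intervals nearest to 3′ ends and of 15.9% of those nearest to starts. Of the clustered histone intervals described below, 10 were nearest to a histone 3′ end and 10 to a histone start. Their part in these percentages was not tested.

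One interval could lie near several genes. Ends of 1 gene were near 530 intervals, and ends of 2 or more were near 200 (27.4%), with at most 5. Starts of genes on opposite strands lay within 1 kb of 77 intervals, the layout of many divergent promoters. The highest-scoring interval at a pair of protein-coding genes lay between H2ac6 and H2bc4, which encode histones H2A and H2B (chr13:23683816-23684352, score 21). An interval with a score of 18 (chr6:30509493-30510282) lay at Tmem209, which encodes a nuclear envelope protein, and Ssmem1, which are transcribed away from each other. H2ac8 and H2bc8 shared one with 16, and Miip and Fv1 one with 15 (chr4:147868418-147869031). None of these 4 overlapped a first-ChIP interval.

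Of the 12 with the highest scores, 9 were shared, 8 had a lncRNA as nearest gene and 3 a protein-coding gene. The last of them was 1 of 3 tied at a score of 25; with all 3, 9 of 14 were shared, 8 had a lncRNA as nearest gene and 5 a protein-coding gene. First came an interval across the start of the lncRNA gene 2900052L18Rik (chr11:120231366-120232068), which scored 39 in the validation list and 45 in the first-ChIP list. Next, at 33, was one 881 bp beyond the 3′ end of Pdlim5, which encodes a PDZ and LIM domain protein of the cytoskeleton (chr3:142238130-142239278; first ChIP 23). Skida1 (chr2:18048149-18049322, validation score 32) had the highest unshared one. The lncRNA genes Gm12292 and Gm34157 had validation scores of 32 and 31, with 29 and 28 in the first ChIP. Gm11228 and Gm15511 each had 27 in the validation and 35 in the first ChIP, and Gm25136 had 27 and 23. Rnu1a1, a gene for the U1 RNA of the spliceosome, had 27 in the validation and 17 in the first ChIP, with the midpoint 11 bp outside the gene (chr11:87422689-87423393). The interval near the start of Ankrd10 and near Mir7238 had 26 in each. Gm31472 with 26 and Gm5083 with 25 were unshared.

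Over all gene-end intervals, a protein-coding gene was nearest in 455, a lncRNA gene in 215 and another class in 60. Sharing was 11.9% (9.04 to 15.2) at the first, 19.5% (14.5 to 25.5) at the second and 21.7% (12.1 to 34.2) at the third. Their median scores were 10, 11 and 11. Counted by gene, 921 of 49555 genes had a validation interval within 1 kb of an end, a background of 1.86%. Of 12636 lncRNA genes 242 had one, 1.92% (1.68 to 2.17), which lies near that background. Among protein-coding genes 575 of 21761 had one, a background of 2.64%, and the first ChIP reached 326 of them, a background of 1.50%. Both ChIPs reached 82 of these genes, 14.3% of the validation genes and 25.2% of the first-ChIP genes. The gene lists that follow are read against these values. An interval counts for a listed gene also where a gene on no list is nearer, which held for 10 of the 86 intervals at listed genes.

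Lmx1b had 1 gene-end interval, across its own start (chr2:33641016-33641350). The midpoint lay 25 bp inside the gene and 10 bp from the start of the lncRNA gene C130021I20Rik on the opposite strand, which was nearer, and 712 bp beyond the 3′ end of the lncRNA gene Gm39790; the score was 10, the median of the class, and no first-ChIP interval overlapped it. Of 20 genes for LIM-factor partners and dorsoventral patterning, Lmo1, which encodes a LIM-only protein that competes for LDB cofactors, was the other one reached. Its interval began at the start and reached upstream (chr7:109175194-109175997, score 17, unshared).

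Limb transcription factors were reached at 10 of 60 genes, 16.7% (8.29 to 28.5), against the background of 2.64%. In the first ChIP it was 3 of 60 (1.04 to 13.9%), a range that overlaps that of the validation ChIP. Tbx18, a T-box factor of the proximal limb mesenchyme, had the highest score, 16, with the midpoint 92 bp inside its start (chr9:87730873-87731464). Zfp36l1, an RNA-decay factor on this list, had 14, and Pbx2, a TALE homeodomain cofactor, 13. Prrx1, the paired-type homeodomain factor of limb mesenchyme, had 13 (first-ChIP score 17) and was the single shared interval of the list. Hand2, a posterior regulator, had 12. Sall4 and Irx5 had 10, and Shox2, Tbx5, the forelimb T-box factor, and Nr2f2 had 9.

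Limb signalling genes were reached at 6 of 52, 11.5% (4.35 to 23.4), by 8 intervals. In the first ChIP it was 1 of 52, 1.92% (0.0487 to 10.3), a range that overlaps that of the validation ChIP. Dusp6, a phosphatase induced by FGF signalling, had the highest score and the single shared interval, with 16 in the validation and 20 in the first ChIP (chr10:99262791-99263516). Fzd2, a Wnt receptor gene with a short body, had 3 intervals, with scores of 15, 13 and 9, at both of its ends, none shared. Smad6, an inhibitor of BMP signalling, had 13, and Wnt5a, a ligand of the outgrowing limb, 10. Tcf7l2, a nuclear effector of Wnt signalling, and Fgf10, the mesenchymal ligand that drives outgrowth, had 9 each, and the Fgf10 midpoint lay at the edge of the window, 998 bp upstream of its start.

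Hox genes, which pattern the limb along its axes, were reached at 9 of 39, 23.1% (11.1 to 39.3), by 11 intervals. In the first ChIP it was 2 of 39, 5.13% (0.627 to 17.3), a range that overlaps that of the validation ChIP. Hox genes lie in clusters, so neighbours are not independent counts. The HoxA cluster held 6 of these intervals at 4 of its 11 genes, and the HoxD cluster 3 at 3 of its 9 genes. Hoxb8 and Hoxc5 were the genes reached in the other clusters. Hoxa9 had 3 of the intervals. The one 870 bp inside its start (chr6:52225848-52227153) had a score of 22, with 30 in the first ChIP, and was the shared one of the 11; those 228 bp inside its 3′ end and 829 bp upstream of its start had 13 and 10. Hoxc5 had 15, Hoxd9 12, Hoxd8 and Hoxa4 11, Hoxd11 10, Hoxa3 and Hoxb8 9, and Hoxa7 8. Few lay close to an end: with a window of 0.5 kb, 10.3% of Hox genes were reached.

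The interval at Hoxc5 also lay 135 bp from Mir615, a microRNA gene within it, and microRNA genes were reached at 13 of 1228 (1.06%, below the background over all genes). The sequences of a few are shown because 3 of them come from related genes: miR-199a and miR-199b are known from mesenchyme, and their 3p arms share all their letters. Capitals mark the seed, bases 2 to 8, which pairs with target messages.
mmu-miR-199a-5p: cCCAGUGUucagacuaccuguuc
mmu-miR-199a-3p: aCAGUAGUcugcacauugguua
mmu-miR-199b-3p: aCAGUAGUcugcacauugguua
mmu-miR-615-3p: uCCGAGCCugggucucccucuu
mmu-miR-7a-5p: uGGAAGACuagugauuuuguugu

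All 13 had a mature sequence in the RefSeq table of this build. Mir199a-2 lay inside the lncRNA gene Dnm3os, whose start had 2 intervals, with validation scores of 13 (chr1:162217151-162217965) and 11, both unshared; at the 3′ end of Dnm3os a further one had 8, with 19 in the first ChIP. Mir199b had an interval 913 bp away with a score of 8. Mir5133 had 20 and Mir7-2, a gene for miR-7a, had 18. The microRNA interval at Ankrd10 was the single shared one among the 13 microRNA intervals.

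Among the protein-coding lists, histone genes had the highest percentage. A symbol pattern for histone genes, most of which are made in S phase for new chromatin, matched 68, and 31 of them (45.6%, 33.5 to 58.1) had a gene-end interval, against 2 of 68 (2.94%, 0.358 to 10.2) in the first ChIP. The 31 genes shared 23 intervals, so neighbours are not independent counts. Of the 23, 22 lay on chromosome 13 and 1 on chromosome 3, and 1 was shared with the first ChIP. Genes of every core type were reached: 9 of 17 for H2A, 9 of 16 for H2B, 8 of 12 for H3 and 3 of 13 for H4, with 2 of 10 for linker histone H1. The midpoint lay outside the nearest histone gene in 21 of the 23, nearest to a start in 10, to a 3′ end in 10 and to an end without strand in 3. Scores ran from 8 to 23 with a median of 11.

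The interval near the 3′ end of H4c11 (chr13:21735717-21736358) had the highest histone score, 23, with the midpoint 581 bp beyond the gene. Those between H2ac6 and H2bc4 and between H2ac8 and H2bc8 (chr13:23570969-23571552) followed with 21 and 16. In all, 5 intervals lay at both an H2A and an H2B gene, genes that are often paired around a common spacer. The shared interval lay 25 bp upstream of H1f3 (chr13:23554781-23555233), with scores of 10 in the validation and 14 in the first ChIP. Histone genes outside chromosome 13 were reached at 3 of 14, against 28 of 54 (51.9%) on it. The genes have near-identical copies, and how reads that map to several copies were treated is not given in the sources used here; its part in these counts was not tested.

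**Figure D3:**
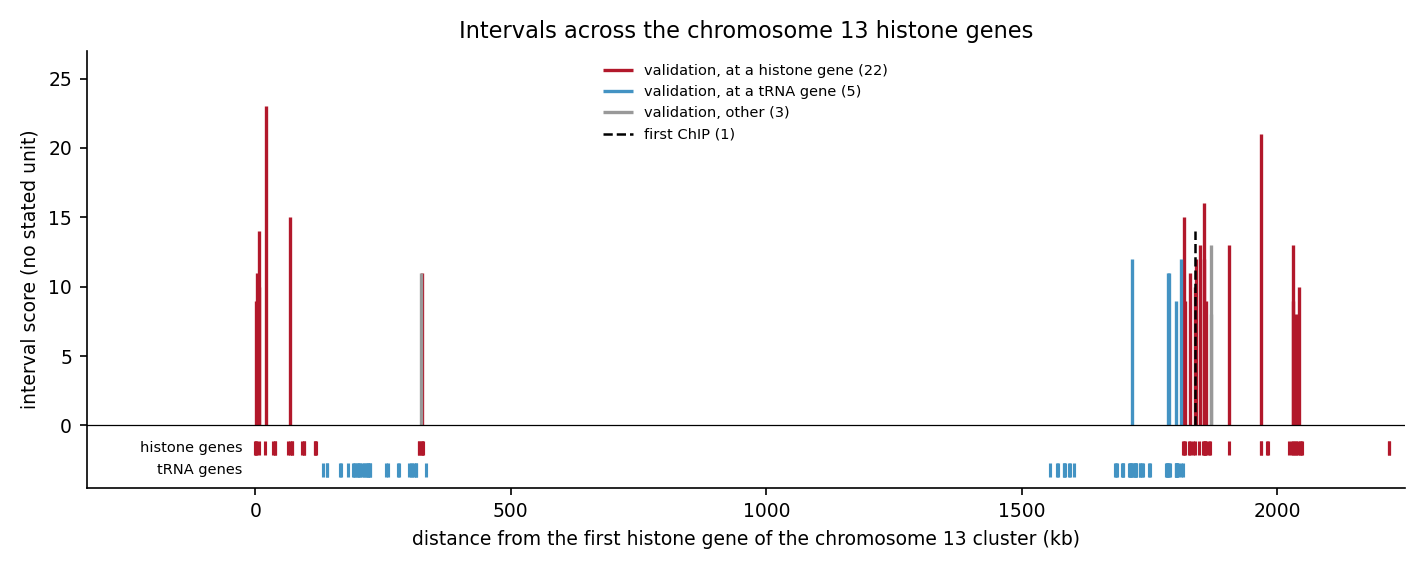
Intervals across the 2.22 Mb of chromosome 13 that hold its histone genes, by distance from the first of them in kb; line height is the score of each list on its own scale, and ticks below mark histone and tRNA genes. The 22 validation intervals at histone genes stand over the histone groups at both ends of the stretch, 5 more stand at tRNA genes, and the first ChIP has 1.

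The same stretch of chromosome 13 holds 77 tRNA genes, of which 9 (11.7%) had a gene-end interval, and no interval lay at both a tRNA and a histone gene. Elsewhere in the genome 38 of 326 tRNA genes (11.7%) had one. In all, tRNA genes, the short templates of RNA polymerase III, were reached at 47 of 403, 11.7% (8.70 to 15.2) where 1.86% of all genes were, against 17 of 403 (4.22%, 2.48 to 6.67) in the first ChIP. They were reached by 31 intervals on 12 chromosomes, and 14 of these intervals lay at 2 or more tRNA genes. Neighbouring tRNA genes are therefore not independent counts, which the binomial range does not allow for. The tRNA intervals had scores of 8 to 17, a median distance of 74 bp and 6 shared. The highest was at n-TSgct7, a serine tRNA gene, with 17 in the validation and 23 in the first ChIP (chr2:119046360-119046934). By their symbols the genes reached covered 17 amino acids. Copies of tRNA genes are also near-identical, with the same limit as for histone genes.

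Of 996 small nuclear RNA genes 14 (1.41%, 0.771 to 2.35) had an interval, a range that includes the 1.86% of all genes. Their intervals had a median score of 13, with Rnu1a1 the highest at 27. Both Y RNA genes, Rny1 and Rny3, which lie close together on chromosome 6, had intervals, with scores of 10 for Rny1 and of 11 and 10 for Rny3, none shared. Of 1330 small nucleolar RNA genes 15 (1.13%, 0.633 to 1.85) had one, below the 1.86% of all genes. They were reached by 12 intervals, of which 7 were shared (58.3%, 27.7 to 84.8), against 15.6% of all validation intervals. Of those 12, 6 also lay at a ribosomal protein gene, and of the 7 shared ones 5 did. Among pseudogenes 9 of 9829 (0.0916%) had one, also below the share of all genes.

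Ribosomal protein genes showed the reverse of the histone pattern between the ChIPs. A gene-end interval of the validation ChIP lay at 16 of 87, 18.4% (10.9 to 28.1), and a first-ChIP one at 37 of 87, 42.5% (32.0 to 53.6). Of the 16 validation intervals 14 were shared (87.5%, 61.7 to 98.4), against 15.6% of all validation intervals. They sat close to gene ends, with a median distance of 59 bp and 14 of 16 within 200 bp. Their scores were modest in the validation list, from 7 to 16, while in the first ChIP the 14 shared ones had scores from 22 to 75 with a median of 36.5. Rps7 had 16 in the validation and 75 in the first ChIP (chr12:28635551-28636243). Rpl27 had 13 and 55, in that order, while Rpl38 had 13 and no first-ChIP interval. Rps6 had the lowest validation score of the list, 7, and 60 in the first ChIP. Processed copies of these genes are numerous in the genome, and their part in the intervals was not tested.

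Across all 109 shared gene-end intervals the validation and first-ChIP scores were loosely related, at 0.18 for Spearman's rho and 0.06 for Pearson's r. Over the 95 that were not at ribosomal protein genes these were 0.40 and 0.28. The points are intervals of the same pair of samples, so the values describe these lists. Of the 8 shared gene-end intervals with a first-ChIP score of 50 or more, 6 were at ribosomal protein genes. The other two were at Csnk1d, which encodes a casein kinase, with 18 in the validation and 85 in the first ChIP, and at Rnps1, a splicing regulator, with 10 and 64. These were chosen after their values were seen.

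Translation factors were reached at 4 of 42 (9.52%, 2.66 to 22.6), and at 7 of 42 in the first ChIP: Eif3f with a score of 14 and 19 in the first ChIP, Eif1 and Eif4g1 with 11 and Eef1a1 with 10. Housekeeping genes were reached at 2 of 21, and Ubb, a polyubiquitin gene, had the higher score of 11. Cell cycle genes were reached at 2 of 44, Top2a with 15 and Ccnd1, a cyclin gene, with 10. Chromatin regulators were also reached at 2 of 44, Setd2 with 9 and Smc3 with 8. Splicing and RNA-binding genes were reached at 1 of 42, Rbm39 with 12 and 21 in the first ChIP, and the first ChIP itself reached 6 of 42. Chaperone and proteasome genes were reached at 0 of 39.

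Joint and cartilage genes were reached at 1 of 33, Sulf1 with a score of 10, and tendon and connective tissue genes at 2 of 39, Lum, a small leucine-rich proteoglycan, with 10 and Col3a1 with 8. Col3a1 was also the single collagen gene of 44. Endothelium had Fli1 with 11, of 15 genes, and ectoderm had Grhl2 with 10, of 19, which was shared, with 19 in the first ChIP. The lists for muscle, blood, nerve and Schwann cells, and adult liver and gut were reached at 0 of 71 genes together; the exact interval for 0 of 71 reaches 5.06%, which includes the background of 2.64%. With lists this short, a count of 0 to 2 cannot be told from the background.

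**Figure D4:**
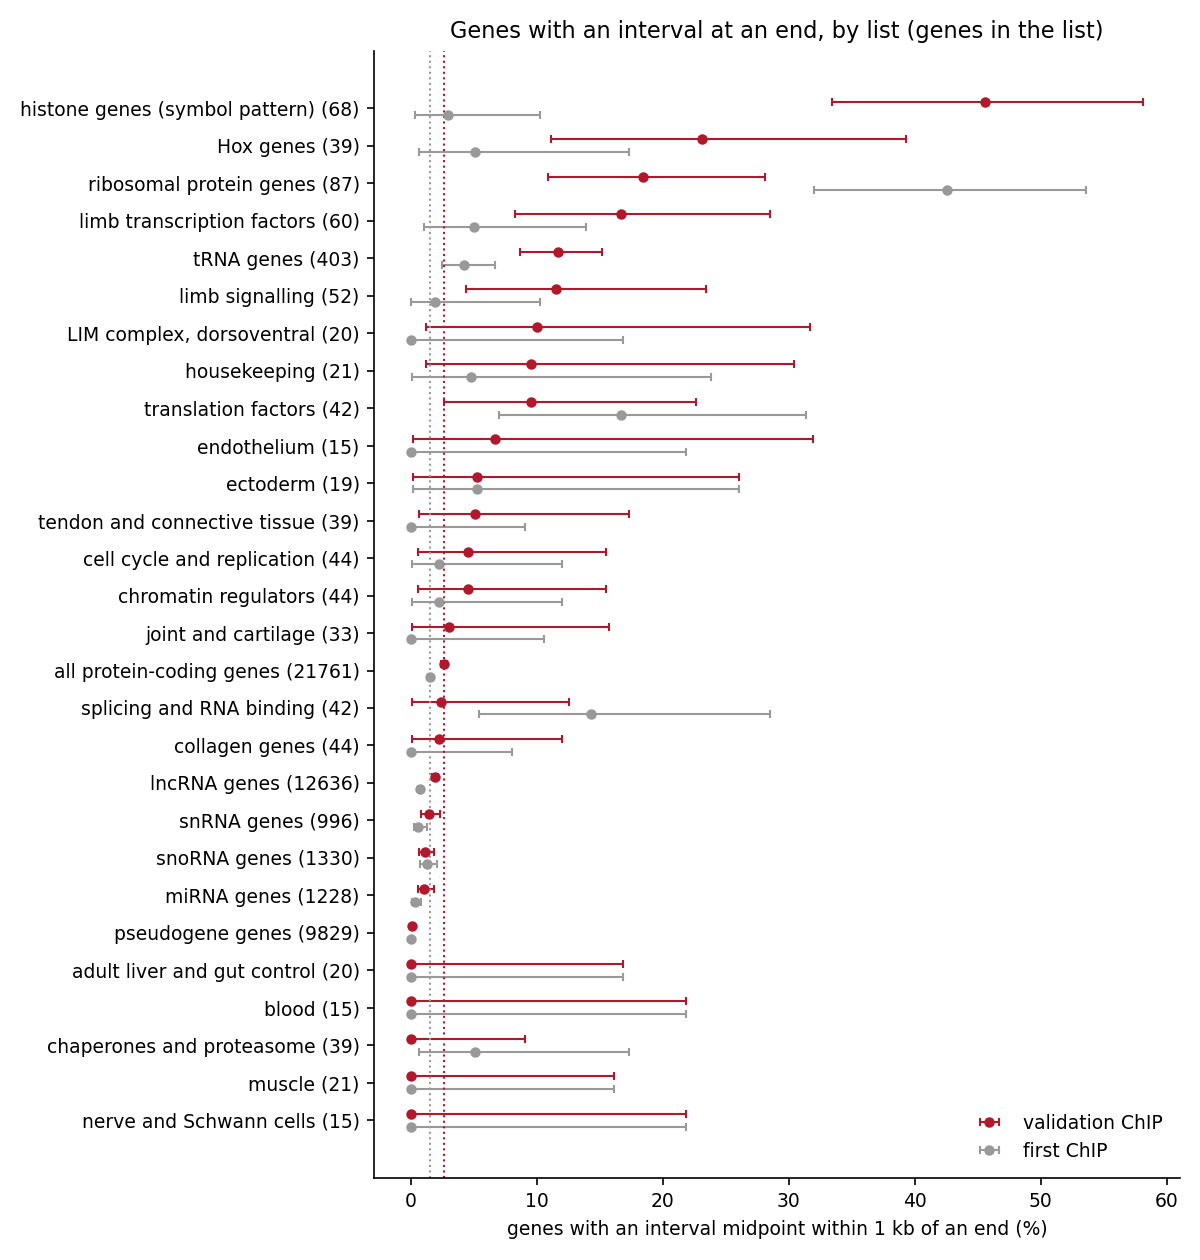
Percentage of genes in each list with an interval midpoint within 1 kb of an end, for the validation ChIP (upper point) and the first ChIP (lower point), with exact 95% binomial intervals; dotted lines give the values over all protein-coding genes, 2.64% and 1.50%. Among the lists drawn, histone genes stand highest for the validation ChIP at 45.6% and ribosomal protein genes for the first ChIP at 42.5%. The 2 Y RNA genes, both reached by the validation ChIP, are not drawn. For classes that are not protein-coding, the validation share over all genes is 1.86%.

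Intervals at both ends of 1 gene over 2 kb long were rare, with 10 genes in all. Hoxa9 and Fzd2 were among the highest. The lncRNA gene Gm51984 had validation scores of 14 and 19 near its start and its 3′ end, with 21 and 24 in the first ChIP. C630043F03Rik had 13 at its start, with 19 in the first ChIP, and 10 and 16 at its 3′ end.

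By chromosome, gene-end intervals made up between 9.68% of the validation list on X (3 of 31) and 27.3% on chromosome 19 (30 of 110), with 1 interval on Y, not at a gene end. Chromosomes 7, 11 and 17 followed with 23.4%, 22.9% and 22.4%, and chromosome 13 had 20.4% (53 of 260).

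The sequences of the promoters at gene-end intervals were compared with those of all promoters in the table. A listed start lay inside a gene-end interval for 322 windows of 301 genes, of 32833 windows in all. For protein-coding genes alone there were 245 windows, of 21248, and these were compared because their base composition was close: the median GC content was 55.7% in gene-end intervals and 56.3% over all. They were richer in CpG, with a median of 18 CpG in 300 bases at gene-end intervals against 13 over all.

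The homeodomain palindrome TAATTA was in 11.8% (8.07 to 16.6) of these protein-coding windows, against 4.53% of all. The core site TAAT, which the palindrome contains, was in 72.2% (66.2 to 77.8), against 51.7%. In the 77 lncRNA windows the shares lay close to the background: the palindrome was in 7.79% (2.91 to 16.2), against 6.68% of all lncRNA windows, and TAAT in 71.4% (60.0 to 81.2), against 69.5%. The base composition of these 77 windows differed, with a median GC content of 53.7% against 48.3% over all lncRNA windows. How it moves with the lncRNA shares was not tested. In protein-coding windows motifs of common promoter factors were also more frequent. The CCAAT box was in 62.0% (55.6 to 68.1) against 38.2%, the ETS site CCGGAA in 36.7% (30.7 to 43.1) against 18.7%, and GGGCGG in 56.7% (50.3 to 63.0) against 46.2%. The YY1 site AAGATGG was in 12.7% (8.76 to 17.5) against 6.22%, and the NRF1 core site TGCGCA in 13.9% (9.81 to 18.8) against 9.74%. The E-box CANNTG went the other way, with 58.8% (52.3 to 65.0) against 69.0%. The TATA box TATAAA was in 9.80% against 12.6%, the TCF/LEF site TTTGAT in 13.9% against 10.03%, the AP-1 site TGANTCA in 8.16% against 6.99%, and the CRE TGACGTCA in 3.27% against 2.24%. In lncRNA windows the CCAAT box was also more frequent, in 57.1% (45.4 to 68.4) against 36.0% of all lncRNA windows. So was GGGCGG, in 42.9% (31.6 to 54.6) against 16.3%. For the ETS, YY1 and NRF1 sites the binomial range in lncRNA windows included the share of all lncRNA windows. Windows of 1 interval or gene overlap, so they are not independent, and how the CpG content moves with these shares was not tested.

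**Figure D5:**
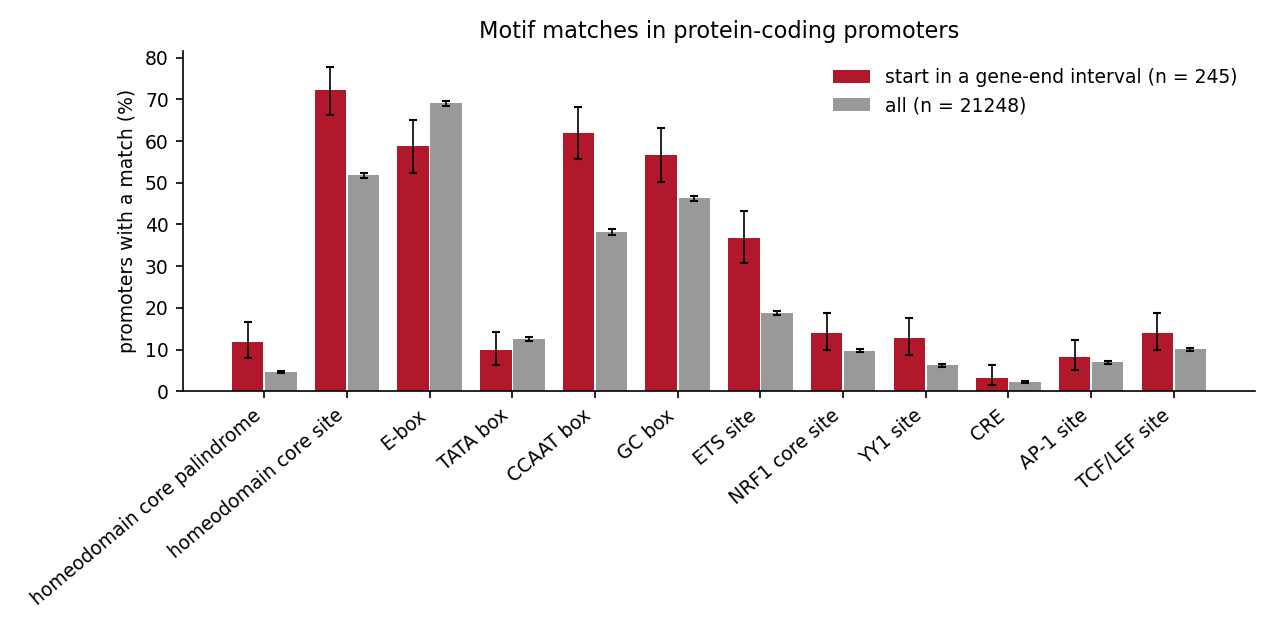
Percentage of protein-coding promoter windows with at least 1 match on either strand, for the 245 whose start lies in a gene-end interval (left bar) and all 21248 (right bar), with exact 95% binomial intervals. The homeodomain palindrome, the YY1 site and the ETS site differ most by ratio, and the E-box is less frequent in gene-end intervals.

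The palindrome windows belonged to 35 genes. Those with the highest scores were Gm34157 (31), Gtpbp1 (25), and Lmo1, Alkbh5 and Gm31727 (17 each), and Hand2 (12) was the single limb transcription factor among them. Of the palindrome windows 31 lay in unshared gene-end intervals, 11.4% (7.91 to 15.8) of 271, and 4 in shared ones, 7.84% (2.18 to 18.9) of 51. Histone promoters in gene-end intervals all held a CCAAT box (14 of 14), as did 53 of all 64 histone windows (82.8%). TAAT was in 13 of 14, against 43 of 64 (67.2%), and the ETS site in 0 of 14, against 2 of 64. Their median GC content was 41.3%, against 45.7% for all histone windows. Of 10 ribosomal protein windows in gene-end intervals, 7 (34.8 to 93.3%) held an ETS site, against 36 of 78 (46.2%) of all ribosomal protein windows. TAAT was in 9 of 10 (55.5 to 99.7%), against 34 of 78 (43.6%). The median GC content of the 10 was 53.5%, against 58.2% for all ribosomal protein windows. The palindrome was in 0 of 10, against 2 of 78.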

How the data were processed

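Chromatin of pooled limb buds was precipitated with 1 LMX1B antibody in 2 ChIP samples. Per the submitters' processing notes, reads were aligned with BWA to mm10. How peaks were called, at which threshold, and how multiply mapping reads were treated is not given in the sources used here. The authors deposited interval and summit tracks, each summit with a whole-number score of no stated unit; depth is unknown. Tracks were tied to samples by track name.

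Intervals were converted to 1-based coordinates and classed by midpoint against RefSeq genes starting at 3 Mb or later. Intervals were shared at 1 bp of overlap. Strand came from the RefSeq promoter table. Of 921 genes at gene-end intervals, 658 had a promoter window. There were 21 gene lists, 4 made by symbol pattern, and 12 motifs. Genes named were the 12 top-scoring intervals', up to 4 per list by score, Lmx1b, those at the 1 kb limit, at both ends, and up to 5 each of non-coding genes and protein-coding pairs; a few of these are not reported here. The intervals, lists and motifs were chosen with earlier results of these data known. Python 3.11.15, pandas 2.3.3 and scipy 1.17.1 were used, and the position and overlap functions were tested on simulated data.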

Additional observations from a re-analysis of the deposited data

How the results depend on the processing

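No paired analysis was possible because each ChIP is 1 sample. Of 79 alternative values, 57 stayed within 1.5-fold for the count, the quartiles for the score or the exact interval of a percentage, and 22 moved; the cause was not tested. The number of gene-end intervals was 1105 with a window of 2.5 kb and 364 at or above the median score, which by construction cover more and fewer intervals. The shared percentage was 9.45% where the overlap covered 50% or more of each interval, 10.3% with summits within 100 bp and 23.4% at or above the median score; by score it was 4.52% (6 to 9), 7.63% (10 and 11), 19.0% (12 to 15) and 51.1% (16 or more). Nearest starts made up 75.1% with 2.5 kb and 87.0% with protein-coding genes only. Protein-coding genes reached were 1.91% with 0.5 kb, 3.71% with 2.5 kb and 1.24% at or above the median score. At or above that score, histone genes stood at 27.9% and tRNA genes at 6.45%; with 2.5 kb tRNA genes stood at 15.4%, and with 0.5 kb Hox genes at 10.3%. In shared intervals only, promoters held the CCAAT box in 51.0%, the ETS site in 37.3% and the GC box in 39.2%, against 60.9%, 31.1% and 53.4% over all 322 windows. With protein-coding genes only the ETS site was in 36.7%. Leaving out histone genes, an alternative chosen after seeing the data, moved none of the 9 values computed that way. Unknown depth and single samples limit every comparison.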

Other observations

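The following families were chosen after their values were seen, and their counts are descriptions. Over all protein-coding genes 2.64% had a gene-end interval, and 15.6% of all validation intervals were shared. Genes for the Groucho-related corepressors, Tle, had a gene-end interval at 4 of 7 members, and 3 of those intervals were shared with the first ChIP. Tle6 had a score of 21 in the validation and 44 in the first ChIP, with the midpoint 164 bp inside its start. Tle4 had 16 and 22, in that order, 5 bp inside its start, and Tle1 had 13 and 19, 130 bp upstream, in the same interval as the start of C630043F03Rik above. Tle3 had 12 and no first-ChIP interval, 212 bp upstream. The lncRNA gene Gm34157, which lies beside Tle3, had the gene-end interval with a score of 31. Genes of the inhibitory helix-loop-helix proteins, Id2 and Id3 of 4 Id genes, had 12 and 8, both unshared.

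Zinc finger genes named Zfp were reached at 18 of 397 (4.53%, 2.71 to 7.07), a range that begins close to the background of 2.64%. Of their 18 intervals 4 were shared (22.2%, 6.41 to 47.6). Zbtb genes were reached at 5 of 41 (12.2%, 4.08 to 26.2), with 0 of 5 shared (0 to 52.2%) and scores of 8 to 13. For both families the range of the shared percentage included the 15.6% of all validation intervals. Solute carrier genes were reached at 3 of 375 (0.80%, 0.165 to 2.32) and olfactory receptor genes at 0 of 1109, which allows up to 0.332% by the exact interval. Malat1, an abundant nuclear lncRNA gene, had 2 intervals at its start. One had its midpoint 135 bp inside, with 24 in the validation and 20 in the first ChIP, and one lay 934 bp upstream, with 10 and no first-ChIP interval.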
